A study of Mus musculus with 16 samples.

Results

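The 10 genes described here carry the insulin signal from its receptor to the GLUT4 glucose transporter and to glycogen and transcription: Insr, Irs1, Irs2, Pik3r1, Akt2, Slc2a4, Tbc1d1, Tbc1d4, Gsk3b and Foxo1. They were chosen by symbol, as the rows of the count table whose gene identifier pairs with 1 of these symbols, and all 10 were found among the 55471 genes of the table. All 10 also passed the filter on low counts, which kept 14331 genes for testing.

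Insulin binding turns on the kinase of its receptor, which phosphorylates the docking proteins IRS1 and IRS2. These recruit PI 3-kinase, and the lipid it makes brings Akt to the membrane, where Akt2 phosphorylates TBC1D1 and TBC1D4 and so releases Rab proteins that let GLUT4 vesicles reach the surface. Akt also phosphorylates GSK3, which frees glycogen synthase, and FOXO1, which then leaves the nucleus, and in skeletal muscle this chain is a main route by which a meal's glucose is cleared. Most of these steps are set by phosphorylation and protein position, neither of which is measured by mRNA counts.

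The mRNA came from skeletal muscle of 16 male mice, 10 labelled Npr1+/- and 6 labelled Npr1+/+, 1 library per mouse. Npr1 encodes guanylyl cyclase-A, the receptor of atrial natriuretic peptide, and the line (B6.129-Npr1tm1Gar/J, backcrossed to C57BL/6J) lacks 1 copy in the whole body, not in muscle alone. Both groups were used at 12 weeks of age, the Npr1+/+ mice being littermate controls, and for 12 weeks all ate a high-fat diet (HFD) with 60% of its energy from lipids. No mouse on a standard diet is among these 16, and the labels give neither the muscle taken nor whether insulin had been given before it was excised. The 16 mice came from 4 cages, 3 to 5 of them from each and both labels from each, and the libraries held 15273472 to 59682677 counts. In these counts the targeted gene did not follow the labels. Npr1 stood at 13.6 ± 3.87 CPM (counts scaled to the TMM-normalized library size) in mice labelled Npr1+/- (SD, n = 10) and at 12.2 ± 1.05 CPM in those labelled Npr1+/+ (SD, n = 6). Its adjusted p was 1.0 (edgeR's quasi-likelihood test). Every direction given below is therefore that of the label, and no other measure of the genotype is set beside these counts. All 8 markers of muscle fibres passed the filter, with a summed level of 66888 to 133958 CPM across the mice. Of these, Myh7 was near the floor, with a lowest count of 0. Its median was 0.511 CPM in Npr1+/- mice (highest 28.6 CPM) and 0.263 CPM in Npr1+/+ mice. Adipocytes also make GLUT4, and the summed level of 8 adipocyte markers was 306 to 1220.1 CPM in Npr1+/- and 481 to 960.4 CPM in Npr1+/+ mice. No tested marker of fat, blood vessels, macrophages, smooth muscle or liver had an unadjusted p under 0.05 between the labels. In bulk tissue fewer cells of a type and less RNA per cell cannot be told apart.

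The 250 bases before the transcription start are shown for 5 of the genes, since the results below turn on Irs2, which differed most between the labels, and on Foxo1, Tbc1d4 and Akt2, which varied together or in opposite directions among mice. Irs1 is shown beside Irs2 as the other docking protein. Sequences are from RefSeq (GRCm38.p6), 5′ to 3′ on the strand of the gene. The set of promoter sequences used held 8 of the 10 genes, all but Insr and Slc2a4. Capitals mark a GC box, the Sp1-type letters GGGCGG, on either strand, and an E-box, the letters CACGTG. The windows lie at chr1:82291440-82291689 on the minus strand for Irs1, chr8:11008930-11009179 on the minus strand for Irs2, chr7:27591302-27591551 on the plus strand for Akt2, chr14:101609192-101609441 on the minus strand for Tbc1d4 and chr3:52268087-52268336 on the plus strand for Foxo1. Akt2 has 4 starts in the RefSeq table and the window used is the one that ends where the deposited gene begins.
Irs1: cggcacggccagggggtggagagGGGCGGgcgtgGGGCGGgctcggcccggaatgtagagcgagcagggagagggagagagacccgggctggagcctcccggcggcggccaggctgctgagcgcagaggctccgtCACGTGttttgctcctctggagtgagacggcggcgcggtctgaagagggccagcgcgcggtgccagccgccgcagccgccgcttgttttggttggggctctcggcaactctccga
Irs2: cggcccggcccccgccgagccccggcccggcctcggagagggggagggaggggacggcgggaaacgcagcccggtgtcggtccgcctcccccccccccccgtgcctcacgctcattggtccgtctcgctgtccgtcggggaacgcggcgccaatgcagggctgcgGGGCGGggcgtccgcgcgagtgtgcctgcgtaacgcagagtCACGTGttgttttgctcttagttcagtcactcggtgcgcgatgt
Foxo1: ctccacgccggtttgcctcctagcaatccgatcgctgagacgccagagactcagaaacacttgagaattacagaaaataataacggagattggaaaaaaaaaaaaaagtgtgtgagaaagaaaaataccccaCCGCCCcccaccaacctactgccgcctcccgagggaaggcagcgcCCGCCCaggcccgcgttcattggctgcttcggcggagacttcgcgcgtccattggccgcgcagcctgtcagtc
Tbc1d4: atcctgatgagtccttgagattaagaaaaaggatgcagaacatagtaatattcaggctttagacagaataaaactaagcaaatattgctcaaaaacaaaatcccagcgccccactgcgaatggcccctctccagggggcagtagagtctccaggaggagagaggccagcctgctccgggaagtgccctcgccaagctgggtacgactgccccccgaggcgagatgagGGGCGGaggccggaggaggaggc
Akt2: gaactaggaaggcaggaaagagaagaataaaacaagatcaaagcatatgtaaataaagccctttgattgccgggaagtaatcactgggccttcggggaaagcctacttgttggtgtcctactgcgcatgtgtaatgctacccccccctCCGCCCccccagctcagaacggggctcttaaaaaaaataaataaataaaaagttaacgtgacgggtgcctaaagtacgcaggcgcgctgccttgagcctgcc
All 5 of these windows hold at least 1 GC box, as do 6 of the 8 windows found, against 32.7% of 32817 promoter windows of the same length. The E-box was found in Irs1 and Irs2 alone among the 8, against 6.02% of all windows. The letters GTAAACA, a FOXO motif, were in none of the 8 windows and in 3.16% of all. The cAMP response element TGACGTCA was likewise in none of the 8 and in 1.55% of all. Both strands were searched for each motif, and none of these motifs contains another. The 5 windows shown differ in base composition, from 48.8% G and C in Akt2 and 54.8% in Tbc1d4 to 72.4% in Irs1 and 72.8% in Irs2.

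Per kilobase of gene, the glucose transporter was by far the most abundant of the 10 mRNAs. Slc2a4 stood at 204 ± 33.3 CPM per kilobase (RPKM, SD over 16 mice), Akt2 at 48.4 ± 8.02 RPKM and Tbc1d1, the Rab GTPase-activating protein best known from muscle, at 16.7 ± 5.79 RPKM. Each of these steps down held in 16 of 16 mice. The other 7 genes lay close together, from Gsk3b at 3.34 ± 2.15 RPKM through Irs1 at 3.33 ± 1.06, Insr at 2.90 ± 1.73, Foxo1 at 2.06 ± 1.21, Tbc1d4 at 2.03 ± 1.14 and Irs2 at 1.97 ± 1.49 to Pik3r1 at 1.94 ± 0.930 RPKM. No neighbours among these 7 differed beyond the spread of their difference over mice. Of the docking proteins, which are not neighbours in this order, Irs1 exceeded Irs2 per kilobase in 15 of 16 mice, by 1.0 ± 0.86 on the log2 scale (mean and SD of the difference).

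The first comparison asked whether muscle of mice labelled Npr1+/- differs from that of mice labelled Npr1+/+ in the mRNA of these genes after HFD. None of the 10 passed the threshold (adjusted p under 0.05, edgeR's quasi-likelihood test with cage and body weight as covariates, Benjamini-Hochberg adjustment over all tested genes), where 0% of the 14331 tested genes did. The adjusted p of each of the 10 was 1.0. At an unadjusted p under 0.05, 1 of the 10 differed, Irs2, against 1.05% of all tested genes, with 0.544% higher in Npr1+/- mice, and limma-voom and DESeq2 also called none of the 10. The CPM ranges of the labels overlapped for all 10, and 0.00698% of all tested genes, a single gene, had ranges that did not.

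**Figure D1:**
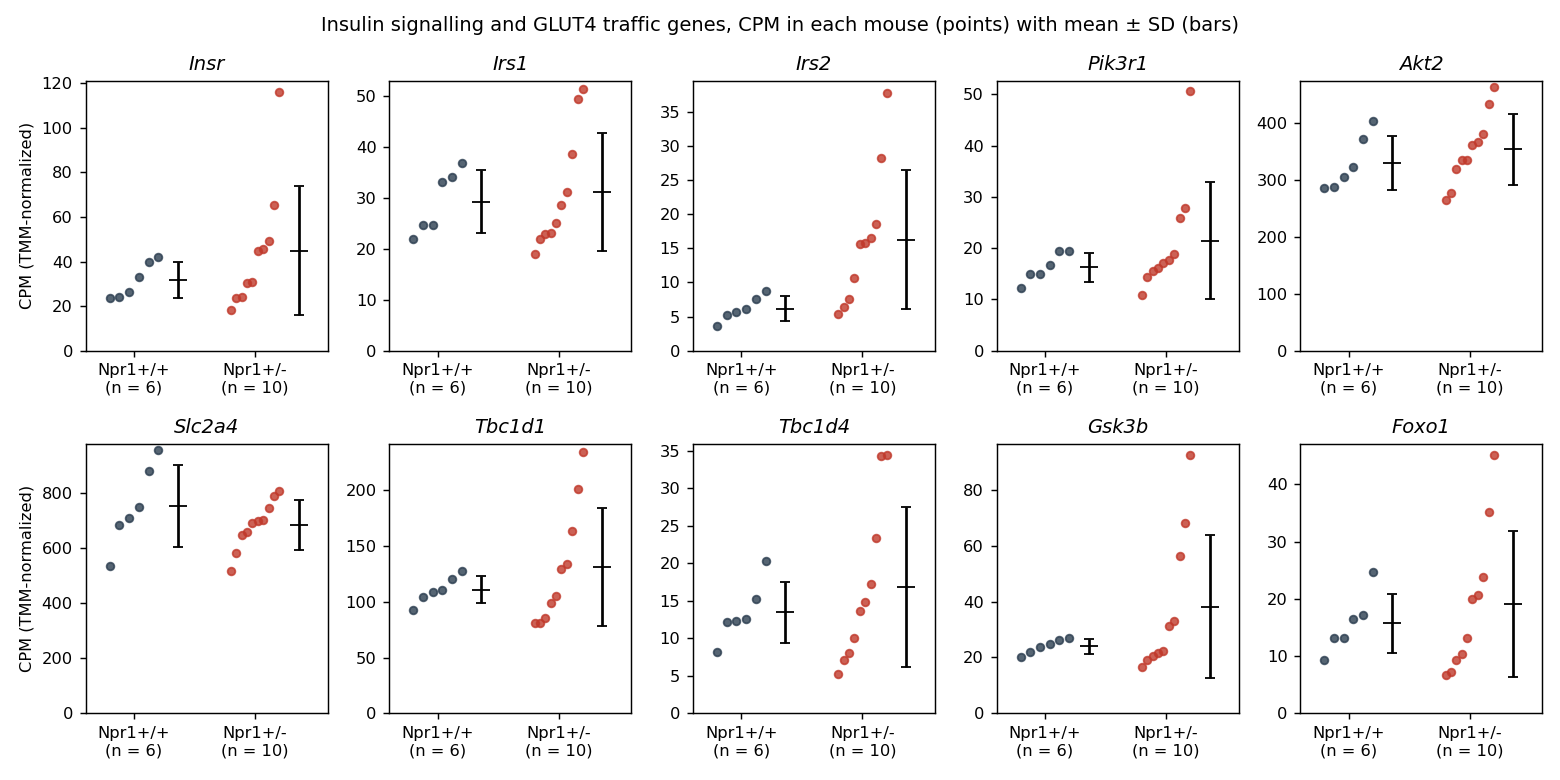
CPM of each gene in each mouse (points, linear axes from 0) with the mean and SD of each label (bars), n = 6 Npr1+/+ and n = 10 Npr1+/-. Irs2 ran from 5.44 to 37.8 CPM in Npr1+/- mice and from 3.63 to 8.79 CPM in Npr1+/+ mice, and the ranges of every gene overlapped.

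Of the receptor and its docking proteins, Insr (ENSMUSG00000005534, chr8:3122061-3279617, minus strand) encodes the insulin receptor. Its lowest, median and highest values were 18.1, 37.7 and 116 CPM in Npr1+/- mice and 23.7, 29.6 and 42.1 CPM in Npr1+/+ mice. The highest value came from Npr1+/- mouse 7, and 5 of the 10 Npr1+/- mice lay above every Npr1+/+ mouse while 2 lay below them all. The log2 fold change of Insr between labels was 0.17 (SE 0.34, 95% interval -0.55 to 0.90). Irs1 (ENSMUSG00000055980, chr1:82233101-82291416, minus strand), the docking protein most tied to muscle glucose uptake, had 19.1, 26.9 and 51.4 CPM against 21.9, 28.9 and 36.8 CPM. Its log2 fold change was 0.13 (SE 0.30, 95% interval -0.51 to 0.76), and the medians of the labels lay within 1 SD of each other.

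Irs2 (ENSMUSG00000038894, chr8:10984681-11008458, minus strand), the docking protein whose mRNA rises in fasting in liver, had the largest difference of the 10 between labels. It stood at 18.5, 10.6, 15.8, 5.44, 16.5, 37.8, 28.2, 15.6, 6.44 and 7.62 CPM in Npr1+/- mice 1 to 10. In Npr1+/+ mice 1 to 6 it stood at 3.63, 5.28, 5.60, 6.12, 8.79 and 7.53 CPM. Of the Npr1+/- mice, 7 lay above the highest Npr1+/+ mouse and the other 3 lay inside the Npr1+/+ range. The mean was 16.3 ± 10.2 CPM (SD, n = 10) against 6.16 ± 1.81 CPM (SD, n = 6). With cage and body weight in the fit, the log2 fold change was 0.85 (SE 0.37, 95% interval 0.08 to 1.63), with p = 0.0330 and an adjusted p of 1.0 by edgeR's quasi-likelihood test. The difference of Irs2 kept its sign in every alternative run. Without Npr1+/- mouse 6 it was 0.50 (p = 0.141 in edgeR's test), the smallest of all. The unadjusted p of Irs2 was also above 0.05 without Npr1+/- mouse 2 (p = 0.0562) or 8 (p = 0.0570), without Npr1+/+ mouse 2 (p = 0.0744) or 4 (p = 0.122), all in edgeR's test, and in limma-voom (p = 0.0553). Without both Npr1+/- mice 6 and 7 it was 0.62 (p = 0.0313). With the label alone in the fit, and neither cage nor weight, it was 1.40 (p = 0.00123, adjusted p = 0.999 in edgeR's test).

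At the PI 3-kinase and Akt step, Pik3r1 (ENSMUSG00000041417, chr13:101680563-101768217, minus strand) encodes the regulatory subunit p85-alpha. Its lowest, median and highest values were 11, 17.3 and 50.6 CPM in Npr1+/- mice and 12.2, 15.9 and 19.5 CPM in Npr1+/+ mice. Only Npr1+/- mice 5, 6 and 7 lay above the Npr1+/+ range, and the log2 fold change was 0.18 (SE 0.32, 95% interval -0.49 to 0.85). Akt2 (ENSMUSG00000004056, chr7:27591552-27639450, plus strand), the Akt isoform that insulin uses for glucose uptake, was among the steadiest of the 10. It had 265, 349 and 464 CPM against 286, 314 and 404 CPM, a log2 fold change of -0.01 (SE 0.15, 95% interval -0.33 to 0.32).

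Of the transporter and its traffic proteins, Slc2a4 (ENSMUSG00000018566, chr11:69942539-69948147, minus strand) encodes GLUT4 itself. Its lowest, median and highest values were 514, 693 and 806 CPM in Npr1+/- mice and 534, 728 and 955 CPM in Npr1+/+ mice. The log2 fold change of Slc2a4 was -0.14 (SE 0.17, 95% interval -0.50 to 0.21), which covers no change as well as a fall of 0.50 on the log2 scale. Tbc1d1 (ENSMUSG00000029174, chr5:64156305-64351486, plus strand), a Rab GTPase-activating protein phosphorylated by both Akt and AMPK, had 80.8, 117 and 234 CPM against 93.0, 109.7 and 128 CPM. Tbc1d4 (ENSMUSG00000033083, chr14:101442360-101609033, minus strand), its Akt-responsive relative, had 5.23, 14.3 and 34.5 CPM against 8.14, 12.5 and 20.3 CPM. Their log2 fold changes were 0.01 (SE 0.22, 95% interval -0.46 to 0.48) and 0.16 (SE 0.40, 95% interval -0.70 to 1.01). For both genes, Npr1+/- mice lay above and below the whole Npr1+/+ range, 5 above and 3 below for Tbc1d1 and 3 above and 3 below for Tbc1d4.

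Of the Akt substrates, Gsk3b (ENSMUSG00000022812, chr16:38089001-38246084, plus strand) encodes a kinase that inhibits glycogen synthase. It had 16.7, 26.9 and 92.5 CPM in Npr1+/- mice and 20.1, 24.3 and 26.9 CPM in Npr1+/+ mice, whose values lay close together. The log2 fold change of Gsk3b was 0.21 (SE 0.33, 95% interval -0.50 to 0.91). Foxo1 (ENSMUSG00000044167, chr3:52268336-52353221, plus strand) encodes the transcription factor that Akt keeps out of the nucleus. It stood at 13.1, 10.4, 20.05, 7.19, 23.8, 45.2, 35.1, 20.6, 9.37 and 6.68 CPM in Npr1+/- mice 1 to 10. In Npr1+/+ mice 1 to 6 it stood at 13.2, 24.7, 13.3, 9.40, 16.5 and 17.2 CPM. The Npr1+/+ values of Foxo1 lay inside the Npr1+/- range, with a log2 fold change of -0.01 (SE 0.37, 95% interval -0.80 to 0.77).

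**Figure D2:**
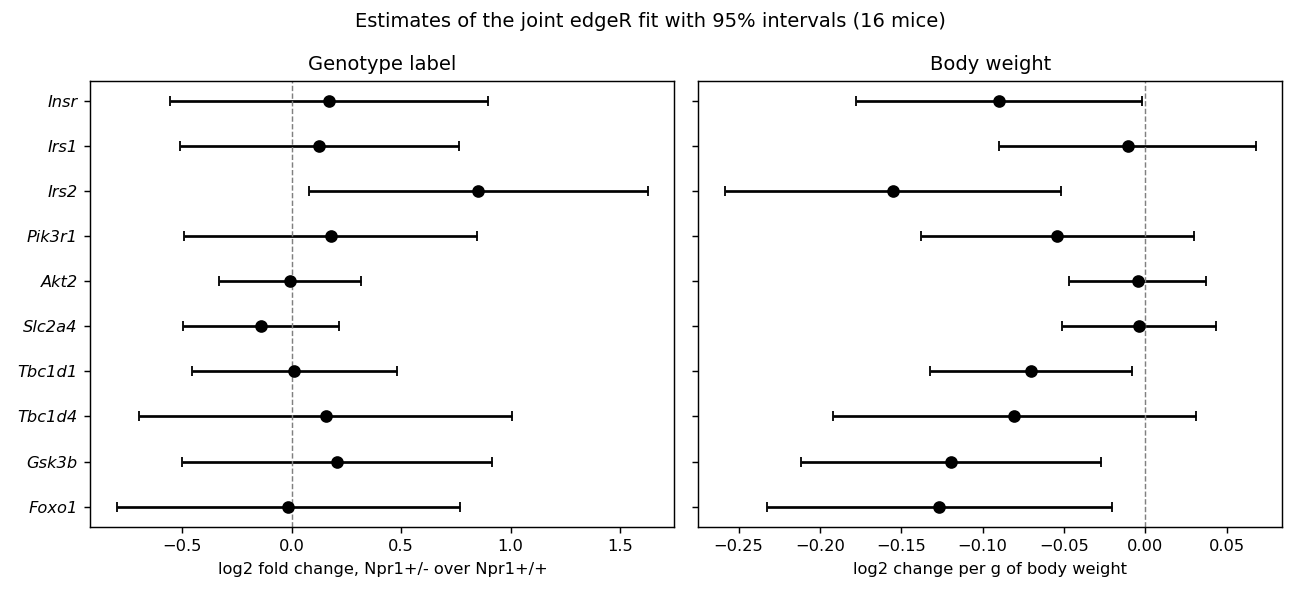
Estimates for each gene from 1 edgeR fit over 16 mice, with 95% intervals (bars): the log2 fold change of Npr1+/- over Npr1+/+ mice (left) and the log2 change per g of body weight (right), with a dashed line at 0. On the left only the interval of Irs2, 0.08 to 1.63, leaves out 0, and on the right those of Insr, Irs2, Tbc1d1, Gsk3b and Foxo1 do.

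The other genes of the pathway gave the same count. Of 84 listed genes with a role in insulin signalling, GLUT4 traffic, glycogen or FOXO output, 83 were tested and none passed the threshold between labels. At an unadjusted p under 0.05 there was 1 of the 83, where 1.05% of all tested genes had such a p. It was Phlpp1, a phosphatase that removes phosphate from Akt, with a log2 fold change of 0.60 (SE 0.28, p = 0.0448, adjusted p = 1.0 by edgeR's test). The median log2 fold change was -0.02 over the 83 genes, 0.14 over the 10 and -0.01 over all tested genes. Pdpk1, which encodes the kinase PDK1 that activates Akt, stood at 39.1 ± 11.4 CPM (SD, n = 10) against 39.3 ± 5.38 CPM (SD, n = 6). In the remaining role groups the smallest unadjusted p between labels belonged to Sh2b2, an adaptor of the receptor (log2 fold change -0.28), Mtor, the kinase of the mTOR complexes (0.47), Aspscr1, the GLUT4 tether TUG (-0.19), Gsk3a, the other GSK3 isoform (-0.17) and Sesn1, a FOXO target (-0.16). Their unadjusted p-values ran from 0.195 to 0.309 in edgeR's test.

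The genes differed in how much they varied among mice. The highest mouse was 10.4 times the lowest for Irs2, 6.77 times for Foxo1, 6.60 times for Tbc1d4, 6.41 times for Insr and 5.54 times for Gsk3b, but 1.86 times for Slc2a4 and 1.75 times for Akt2. The biological coefficient of variation, the spread that the fit leaves after label, cage and weight, was 0.415 for Tbc1d4, 0.390 for Foxo1 and 0.378 for Irs2. These are the 94.6th, 92.4th and 91.1st percentiles of all tested genes, whose median is 0.242. Slc2a4 (0.204) and Akt2 (0.190) lay at the 26.2nd and 16.3rd percentiles. The SD of log2 CPM was larger in Npr1+/- than in Npr1+/+ mice for 9 of the 10 genes, all but Slc2a4, and for 80.2% of all tested genes. For Gsk3b it was 0.86 against 0.16. Without Npr1+/- mice 6 and 7 it was larger for 8 of the 10, then also without Akt2, and for 74.9% of all tested genes.

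Much of this spread came from the same few mice. Npr1+/- mice 6 and 7 were the highest pair of the 16 for 6 of the 10 genes, Irs2, Pik3r1, Tbc1d1, Tbc1d4, Gsk3b and Foxo1, as they were for 17.8% of all tested genes and for 25 of the 83 other pathway genes. Npr1+/- mouse 10 was the lowest for 7 of the 10 and for 11.8% of all tested genes. Akt2 went the other way, with its highest value in Npr1+/- mouse 10 (464 CPM) and its lowest in mice 7 (265 CPM) and 6 (277 CPM). These libraries also stood apart in how counts were spread over long and short genes. The gene length slope, which is the change in log2 CPM relative to the other libraries per log2 unit of gene length, was 0.318 in Npr1+/- mouse 7, 0.238 in mouse 6 and 0.179 in mouse 5, and -0.193 and -0.181 in mice 9 and 10. The other 11 libraries, wildtype ones included, lay between -0.12 and 0.06. No difference in the mean slope was detected between the labels, with 0.0230 ± 0.177 (SD, n = 10) against -0.0384 ± 0.0602 (SD, n = 6). The two-sided exact permutation p for the difference in means was 0.431. The slope spread more among Npr1+/- mice, and the libraries named at both ends all carry that label. Its part in the larger SD of the genes in Npr1+/- mice was not tested.

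**Figure D3:**
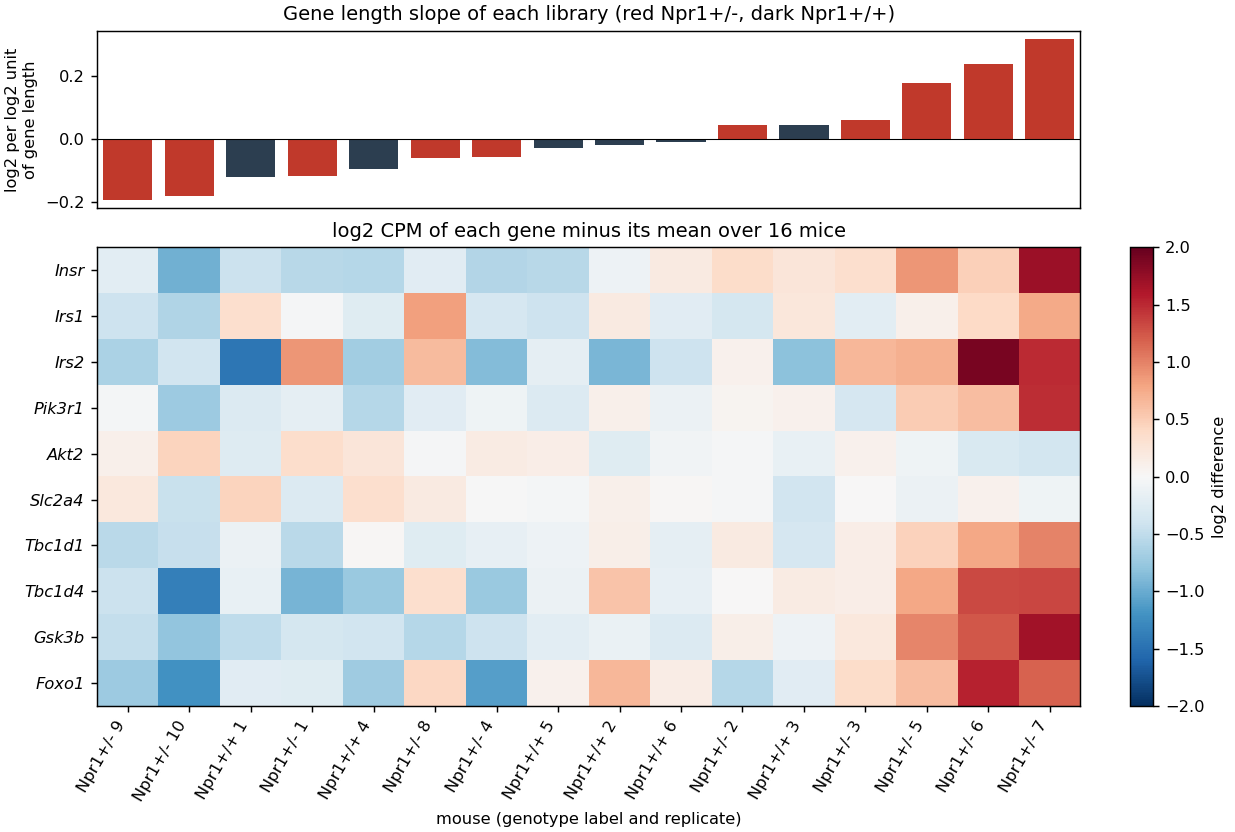
Mice ordered by the gene length slope of their library (upper panel, bars from 0, log2 per log2 unit of gene length) and the log2 CPM of each gene minus its mean over 16 mice (lower panel, colour). Insr, Pik3r1, Tbc1d1, Tbc1d4, Gsk3b and Foxo1 run from low at the left to high at the right, where the slope reaches 0.318, Akt2 runs the other way, and Slc2a4 shows no such order.

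Most of the 10 genes followed that slope across mice. Pearson's r was 0.961 for Gsk3b (Spearman's rho 0.929), 0.913 for Tbc1d1 (0.777), 0.901 for Insr (0.832), 0.872 for Tbc1d4 (0.800), 0.857 for Pik3r1 (0.656), 0.797 for Foxo1 (0.747), 0.695 for Irs2 (0.509) and 0.535 for Irs1 (0.468). It was -0.684 for Akt2 (-0.644) and -0.138 for Slc2a4 (-0.282). By two-sided permutation tests adjusted over 11 relations, body weight included, Pearson's r passed for 9 genes, the adjusted p being 0.0407 for Irs1, 0.00462 for Akt2 and 0.607 for Slc2a4. Spearman's rho passed for 7, not for Irs1 (adjusted permutation p = 0.0846) or Irs2 (0.0653). The slope is a property of the whole library, and 55.7% of all tested genes had an r with it at least as far from 0 as that of Irs1. Without the 2 libraries farthest from the median slope, r was 0.909 for Gsk3b, 0.787 for Tbc1d1 and 0.860 for Insr, but 0.386 for Irs2 and 0.218 for Irs1. The genes themselves are long, with a median of 8170.5 bases against 4197 for all tested genes, from 3478 bases for Slc2a4 to 13746 for Insr. Once each library's trend with gene length was taken out, the SD of log2 CPM over 16 mice went from 0.67 to 0.37 for Insr, from 0.70 to 0.47 for Gsk3b, from 0.95 to 0.86 for Irs2, from 0.78 to 0.62 for Foxo1 and from 0.76 to 0.61 for Tbc1d4. It rose from 0.23 to 0.37 for Akt2, whose length of 7131 bases is above the median and whose counts ran against the trend. Markers of several cell types also moved with these libraries. Of 6 endothelial markers, 5 had their highest pair of values in Npr1+/- mice 6 and 7, with sums of 486 and 532 CPM, against a range of 167 to 532 CPM in Npr1+/- and of 197 to 256 CPM in Npr1+/+ mice. These 6 markers have a median length of 5818.5 bases. Of 8 muscle fibre markers, 4 had their highest pair in these mice, whose sums of 124231 and 133958 CPM were the highest of the 16. The 4 smooth muscle markers summed to 224 CPM in each, also the highest, with 1 of the 4 having its highest pair there. The adipocyte sum was lowest in mouse 7 (306 CPM) and highest in mouse 10 (1220.1 CPM), and no adipocyte or macrophage marker had its highest pair in mice 6 and 7. The part of these cell types in the members' values was not tested.

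Across mice, the genes rose and fell together, with Akt2 opposite and Slc2a4 apart. Of the 45 pairs, 32 had a Pearson's r with an adjusted permutation p under 0.05, 25 of them positive and 7 negative, and all 7 negative ones involved Akt2. An r at least as far from 0 as that of the weakest of these pairs was reached by 39% of all pairs of 1 of the 10 genes with any other tested gene. Spearman's rho passed for 23 pairs. Slc2a4 was in none of the called pairs, and 6.88% of all other tested genes reached such an r with it, against 53.4% with Gsk3b.

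**Figure D4:**
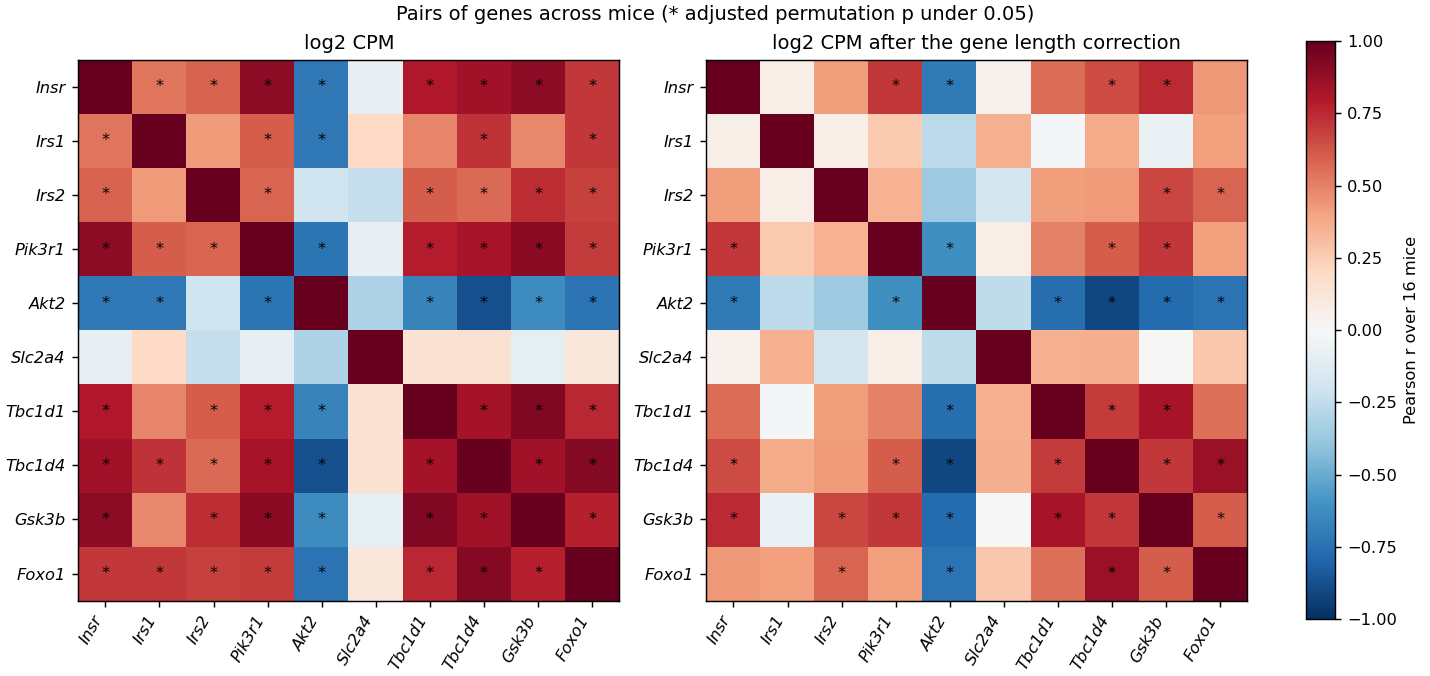
Pearson's r of log2 CPM over 16 mice for each pair of the 10 genes (colour from -1 to 1), as measured (left) and after the gene length correction (right), with * where the permutation p adjusted over 45 pairs is under 0.05. On the left 32 pairs carry a mark and on the right 18, the row of Akt2 is blue on both sides, and the row of Slc2a4 carries no mark.

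By Pearson's r over 16 mice, the tightest positive pairs were Tbc1d1 with Gsk3b and Tbc1d4 with Foxo1, while Spearman's rho ranked other pairs above Tbc1d1 with Gsk3b. For Tbc1d1 and Gsk3b, r was 0.922 and rho 0.773 (adjusted permutation p = 0.000112 and 0.00576, 16 mice), and r was 0.787 without the 2 mice farthest from the median of Tbc1d1. For Tbc1d4 and Foxo1, r was 0.915 and rho 0.900 (adjusted permutation p = 0.000112 and 0.00045), with r = 0.849 without the farthest 2. The strongest negative pair was Akt2 with Tbc1d4, with r = -0.881 and rho = -0.835 (adjusted permutation p = 0.000112 and 0.00195), and r = -0.808 without the farthest 2. For these 3 pairs the raw permutation p of r, 1e-05, was the smallest that 100000 resamples can give. So the mRNA of an Akt isoform and that of one of its GLUT4 substrates moved in opposite directions among these mice. Irs1 and Irs2 did not track each other beyond the threshold, with r = 0.427 and rho = 0.25 (adjusted permutation p = 0.128 and 0.426). On what is left after label, cage and body weight, r was 0.574 and rho 0.588 (adjusted permutation p = 0.0272 and 0.0257). These p-values are too small, since the residuals of 16 mice were permuted as free values. The fit leaves only 10 residual degrees of freedom, so the pair is not called there. After the gene length correction r was 0.0675, and without Npr1+/- mice 6 and 7 it was 0.113.

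Fewer pairs passed when gene length or the 2 libraries were set aside. After the length correction 18 pairs passed by Pearson's r, 12 positive and 6 negative, all 18 among the 32 and all 6 negative ones with Akt2, and none with Irs1. Without Npr1+/- mice 6 and 7, 10 passed, all among the 32 and 1 of them negative. Tbc1d4 and Foxo1 had r = 0.860 after the correction and 0.849 without the 2 mice, with adjusted permutation p-values of 0.000675 and 0.00293. Akt2 and Tbc1d4 had r = -0.908 and -0.829, with adjusted permutation p-values of 0.00045 and 0.0039. For the pairs of Akt2 the correction is no clean test. Akt2 ran against the length trend, so taking the trend out raised its SD from 0.23 to 0.37. The subtracted trend can itself add to a negative r with genes that followed it. Tbc1d1 and Gsk3b had r = 0.825 and 0.787, with adjusted permutation p-values of 0.00135 and 0.00653. By Spearman's rho 11 pairs passed after the correction and 4 without the 2 mice, where Tbc1d1 and Gsk3b did not (rho = 0.661, adjusted permutation p = 0.0702). Cages gave too few mice for a value each, so the pairs were also taken on what is left after label, cage and body weight. There 36 passed, and r was 0.955 for Tbc1d4 and Foxo1 and -0.952 for Akt2 and Tbc1d4. The permutation ignored that the fit leaves 10 residual degrees of freedom, so its p-values are too small and the count of 36 may be too high.

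Foxo1 mRNA was also set beside 7 genes known as targets of FOXO proteins. The pathway list holds further FOXO targets, Txnip, Klf15, Pck1, G6pc3, Map1lc3b and Bnip3, whose r with Foxo1 was not taken. These do not all run with Foxo1. Bnip3 and G6pc3 were lowest in Npr1+/- mice 6 and 7, where Foxo1 was highest, while Txnip was highest in mouse 7. With r over 16 mice, 3 of the 7 passed, Insr (r = 0.709, rho = 0.726), Irs2 (r = 0.682, rho = 0.477) and Fbxo32, the muscle ubiquitin ligase atrogin-1 (r = 0.573, rho = 0.429). The adjusted permutation p-values of r were 0.0130, 0.0130 and 0.0473, and an r of at least that of Fbxo32 was reached with Foxo1 by 19.1% of all tested genes. The others of the 7 were Pdk4, a brake on glucose oxidation (r = 0.389), Sesn1 (0.261), Trim63, the ubiquitin ligase MuRF1 (0.112) and Cited2 (0.0610), and by Spearman's rho only Insr passed. None of the 7 passed after the length correction or without Npr1+/- mice 6 and 7, and 1 passed without mouse 6 alone. On what is left after label, cage and body weight 2 passed by both coefficients, Insr (r = 0.733, rho = 0.715) and Irs2 (r = 0.814, rho = 0.735), and Fbxo32 did not (r = 0.473, adjusted permutation p = 0.153). As for the pairs, the permutation p-values on these residuals are too small. Without the 2 mice farthest from the median of Foxo1, r was 0.603 for Insr, 0.389 for Irs2 and 0.254 for Fbxo32. Foxo1 mRNA does not show how much FOXO1 protein was in the nucleus.

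Body weight at the end was 43.6 ± 3.79 g (SD, n = 10) in Npr1+/- and 47.4 ± 4.69 g (SD, n = 6) in Npr1+/+ mice, a difference with a two-sided exact permutation p of 0.0950. In the same fit as the label, all 10 genes had a negative slope on body weight, as did 52.7% of all tested genes. None of the 10 passed the threshold, where 0% of all tested genes did by edgeR's test. At an unadjusted p under 0.05, 5 of the 10 were lower in heavier mice and none higher, against 17.1% of all tested genes, 12.3% lower and 4.74% higher, and limma-voom and DESeq2 called none of the 10 after adjustment. The 5 were Irs2, with -0.16 on the log2 scale per g (SE 0.05), Foxo1 with -0.13 (SE 0.05), Gsk3b with -0.12 (SE 0.04), Insr with -0.09 (SE 0.04) and Tbc1d1 with -0.07 (SE 0.03). Their unadjusted p-values in edgeR's test were 0.00579, 0.0222, 0.0144, 0.0460 and 0.0289, and their adjusted p-values ran from 0.245 to 0.286. The unadjusted p of Insr was above 0.05 under another scaling, filter or depth, from 0.0513 to 0.0682 in edgeR's test, which leaves 4 genes. The slopes of Slc2a4 (-0.0041, SE 0.022) and Akt2 (-0.0048, SE 0.020) were the flattest. Markers of cell types had slopes on weight in the same fit too, with an unadjusted p under 0.05 for 3 of 8 muscle fibre markers, the fast myosins Myh4 (-0.21 per g), Myh1 (-0.23) and Myh2 (-0.24), and for 2 of 6 endothelial markers, Kdr (-0.13) and Cdh5 (-0.09). In the other direction there were 2 of 6 macrophage markers, C1qa (0.09) and Adgre1 (0.09), and 1 of 8 adipocyte markers, Fabp4 (0.07). None of these markers passed after adjustment, and their part in the members' slopes was not tested.

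**Figure D5:**
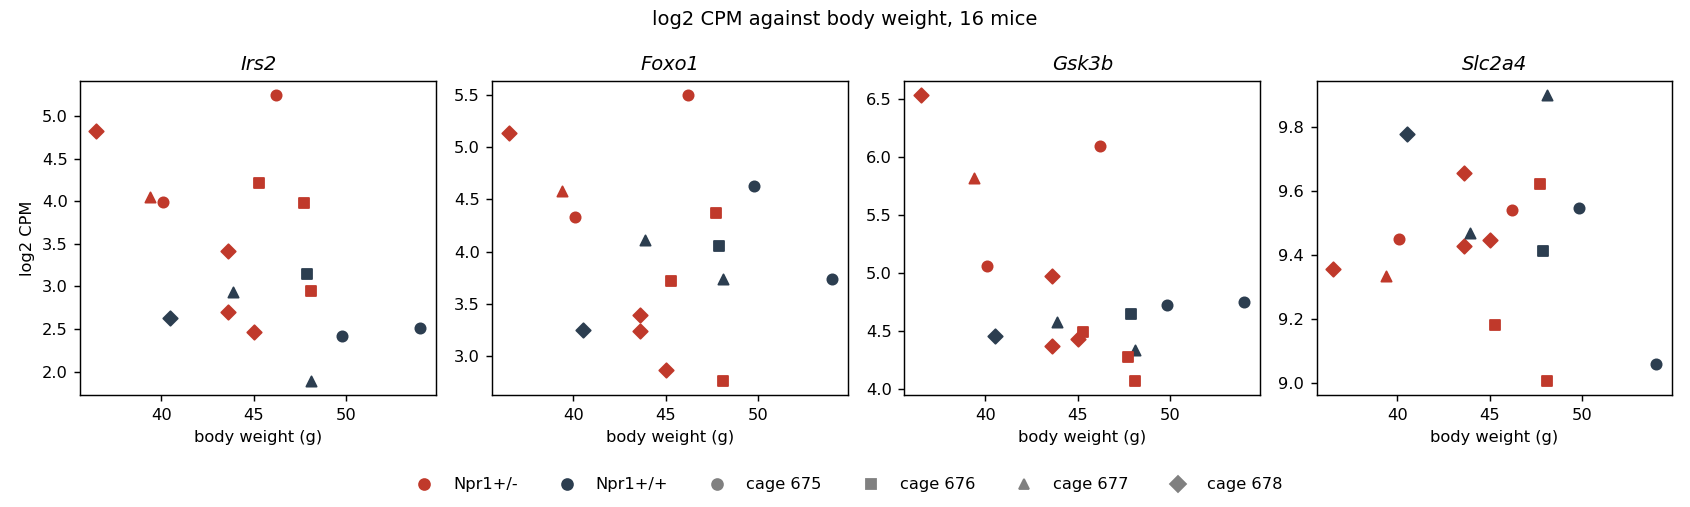
log2 CPM of Irs2, Foxo1, Gsk3b and Slc2a4 (vertical axes, each on its own scale) against body weight in g, 1 point per mouse, with colour for the genotype label and shape for the cage. The lightest mouse, Npr1+/- mouse 7 at 36.5 g, is the highest for Gsk3b and the second highest for Irs2 and Foxo1, and Slc2a4 shows no slope.

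The slopes on weight depended on single mice. Npr1+/- mouse 7, the lightest at 36.5 g, is also the library with the steepest gene length slope, and that slope and body weight had an r of -0.415 over the mice (rho = -0.349, adjusted permutation p = 0.121 and 0.203). Without Npr1+/- mice 6 and 7 the slopes per g were -0.10 for Irs2, -0.05 for Foxo1, -0.05 for Gsk3b, -0.01 for Insr and -0.04 for Tbc1d1, and Irs2 alone of the 5 kept an unadjusted p under 0.05 (p = 0.00978, adjusted p = 0.563, edgeR's test). Without Npr1+/- mouse 3, on the other hand, 7 of the 10 passed the threshold, as did 22.1% of all tested genes in that fit. The 7 were Irs2 (-0.22 per g, adjusted p = 0.00448 in edgeR's test), Gsk3b (-0.18), Foxo1 (-0.19), Tbc1d1 (-0.11), Pik3r1 (-0.11), Insr (-0.13) and Tbc1d4 (-0.14), and the largest of their adjusted p-values was 0.0439. With body weight alone in the fit, the slope was -0.09 for Irs2 and -0.04 for Foxo1, with unadjusted p-values of 0.0600 and 0.343 in edgeR's test. In that fit it was -0.08 for Insr (p = 0.00520), -0.09 for Gsk3b (p = 0.00739) and -0.05 for Tbc1d1 (p = 0.0130). Pik3r1 also had an unadjusted p under 0.05 there, with -0.06 per g (p = 0.0249, edgeR's test). After the gene length correction the slopes were -0.13 for Irs2, -0.08 for Foxo1, -0.07 for Gsk3b, -0.04 for Insr and -0.04 for Tbc1d1, and Insr and Tbc1d1 no longer had an unadjusted p under 0.05 (p = 0.133 and 0.0642 in edgeR's test).

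In the other pathway genes, 24 of the 83 had an unadjusted p under 0.05 for body weight, 22 lower and 2 higher in heavier mice, where 17.1% of all tested genes had one, 12.3% lower and 4.74% higher. Of the 83 slopes 80.7% were negative, against 52.7% of all. Hk2, the hexokinase that traps glucose inside the muscle fibre, had the smallest p of the 83, with -0.17 per g (SE 0.04, p = 0.00113, adjusted p = 0.245 in edgeR's test). Gys1, muscle glycogen synthase, was near it with -0.12 per g (SE 0.03, p = 0.00204). In 3 of the other role groups the smallest p belonged to Fbxo32 for the FOXO targets (-0.10), Sort1, the GLUT4 vesicle protein sortilin (-0.09), and Phlpp1 for the negative regulators (-0.09).

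Between the 4 cages none of the 10 passed the threshold, where 0.0279% of all tested genes did. At an unadjusted p under 0.05, 2 of the 10 did, Foxo1 (p = 0.0166) and Irs2 (p = 0.0260), both with an adjusted p of 0.656 in edgeR's test, against 7.36% of all tested genes, and limma-voom and DESeq2 called none of the 10 after adjustment. With cage alone in the fit, and neither label nor weight, the unadjusted p was 0.238 for Foxo1 and 0.703 for Irs2 in edgeR's test. Without any adjustment for label or weight, the mean of Foxo1 was 25.8 ± 13.7 CPM in cage 675 (SD over 4 mice), 14.2 ± 5.91 CPM in cage 676 (4 mice), 18.1 ± 5.38 CPM in cage 677 (3 mice) and 14.3 ± 11.7 CPM in cage 678 (5 mice). The mean of Irs2 was 16.1 ± 15.2, 12.6 ± 5.27, 9.22 ± 6.60 and 11.4 ± 9.63 CPM in the same order. The ranges of all 4 cages overlapped for both genes. Without Npr1+/- mouse 3, Irs2, Foxo1 and Gsk3b passed (adjusted p = 0.0203, 0.0211 and 0.0257 in edgeR's test), as did 6.08% of all tested genes in that fit. Of the 83 other pathway genes, 8 had an unadjusted p under 0.05, with the smallest for Ppp1r3c, a subunit that brings a phosphatase to glycogen (p = 0.000287, adjusted p = 0.242). In the other role groups the smallest were Cbl, Mtor, Phlpp1, Ralgapb and Cited2, with p from 0.0182 to 0.110.

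Each gene was also compared with every other tested gene over the 16 mice. The closest matches by Pearson's r, given as a description, were Trip11 for Insr (0.984), Fem1c for Irs1 (0.886), Xirp1 for Irs2 (0.883), Prrc2c for Pik3r1 (0.947), Prmt7 for Akt2 (0.977), Coq8a for Slc2a4 (0.823), Washc2 for Tbc1d1 (0.976), Macf1 for Tbc1d4 (0.958), Glg1 for Gsk3b (0.988) and Mylk for Foxo1 (0.943). Next came Ptprb and Raph1 for Insr, Jak1 and Rest for Irs1, Tbx3 and Fam168b for Irs2, and Tnrc6b and Dhtkd1 for Pik3r1. Vps4a and Adipor1, a receptor of adiponectin, followed for Akt2, and Tmem161a and Tmem143 for Slc2a4. For Tbc1d1 they were Ddb1 and Smpd4, for Tbc1d4 Shroom4 and Ift172, for Gsk3b Synrg and Pi4ka, and for Foxo1 Nes and Plxna2. Most of these genes are long as well, such as Macf1 with 32385 bases and Trip11 with 10150 bases, and only Vps4a, with 2522 bases, and Tmem161a, with 3673 bases, are shorter than the median tested gene. Slc2a4 had the lowest best match of the 10.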

How the data were processed

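The authors deposited raw counts per gene for the 16 libraries: 52-bp paired-end reads of poly-A mRNA, mapped to GRCm38 with STAR 2.7.2b and the GENCODE M24 gene model and counted with featureCounts where both ends aligned (version 1.6.4 in the submitters' processing notes). Genotype label, cage and body weight came from the labels, and 55144 of 55471 identifiers were paired with a symbol. The members and gene lists were chosen with earlier results of these data known.

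With R 4.3.3 and edgeR 4.0.16, genes were kept by filterByExpr, scaled by TMM and fitted with glmQLFit (robust, legacy) on label, cage and body weight (10 residual degrees of freedom), and each term was tested by glmQLFTest with Benjamini-Hochberg adjustment at 0.05. log2 CPM used a prior count of 2. Correlations used two-sided permutation tests with 100000 resamples, adjusted over 45 pairs or 7 targets. On residuals of the fit, these tests ignored the 10 residual degrees of freedom, which makes those p-values too small. The gene length correction, a lowess of each library's deviation on log2 gene length (span 0.3), and the fits without Npr1+/- mice 6 and 7 were added after the data were seen. Each library is 1 mouse, so p-values measure the spread between mice. The smallest member count in any library was 83. The steps were tested on simulated data. limma 3.58.1 and DESeq2 1.42.0 served as alternatives.

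Besides all 10 members, the genes named are Npr1, Pdpk1, in each role group the pathway gene with the smallest p in each contrast, and the 3 genes most alike to each member. Some genes that this rule names are not reported here. Gys1, the cell type markers and the targets of FOXO1 beyond this rule were named as listed or after their values were seen. The replicate numbers were not taken as pairing the mice. Deviations of same-numbered mice had a mean correlation of 0.0779 over 6 pairs (0.0328 to 0.170). Those of other mice had -0.00816 over 54 (-0.415 to 0.514), and the difference was not tested.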

Additional observations from a re-analysis of the deposited data

How the results depend on the processing

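No setting tried gave a member an adjusted p under 0.05 between labels, and 0 members passed under any mouse left out. On body weight, leaving out single mice gave 0 to 7 members and between cages 0 to 3, the upper count in both without Npr1+/- mouse 3. The number of correlated pairs ranged from 25 to 34 and that of FOXO targets from 1 to 3 when single mice were left out. After the length correction these were 18 and 0, and without Npr1+/- mice 6 and 7 they were 10 and 0. The cause of these changes was not tested. A replicate block used instead of cage left 0 members called for the label, with Irs2 at 1.29, and on weight it called 0. No Npr1+/+ mouse is numbered 7 to 10, so the block fits those Npr1+/- mice exactly. Its estimates rest on the mice numbered 1 to 6 and on few residual degrees of freedom, so it is a weak check. The low-count filter mattered for the whole table, where 8 of 30287 genes differed between labels without it, and DESeq2 called 6 of 14331 for the label and 78 between cages.

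The fold changes that changed sign were these. In the fit with body weight as the only covariate, Insr stood at -0.00062, Akt2 at 0.12, Tbc1d1 at -0.0021 and Foxo1 at 0.14. With cage as the only covariate Akt2 stood at 0.011 and Foxo1 at 0.47, and with the label alone at 0.10 and 0.29. With the replicate block Akt2 stood at 0.032 and Foxo1 at 0.17, and with the block and the length correction Irs1 stood at -0.096 and Foxo1 at 0.023. Akt2 was 0.0094 with RLE size factors, 0.010 without a filter, 0.0095 in DESeq2 and 0.026 without mice 6 and 7. Tbc1d1 was -0.023 after the length correction, -0.053 without mice 6 and 7 and -0.00029 in limma-voom, and Foxo1 was 0.00062 after thinning to the smallest library. Leaving out single mice, the range was -0.27 to 0.37 for Insr, -0.062 to 0.22 for Irs1, 0.50 to 1.01 for Irs2, -0.22 to 0.37 for Pik3r1, -0.063 to 0.17 for Akt2, -0.20 to -0.034 for Slc2a4, -0.14 to 0.18 for Tbc1d1, -0.19 to 0.45 for Tbc1d4, -0.096 to 0.54 for Gsk3b and -0.32 to 0.17 for Foxo1.

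Slopes on weight that changed sign were those of Irs1, Pik3r1, Akt2, Slc2a4, Tbc1d4 and Gsk3b. With the replicate block they were 0.026 for Irs1, 0.042 for Pik3r1, 0.027 for Tbc1d4 and 0.0046 for Gsk3b, and with the block and the length correction 0.025, 0.041, 0.026 and 0.0043. Without mice 6 and 7 they were 0.040 for Irs1, 0.026 for Pik3r1 and 0.0015 for Tbc1d4. After the length correction they were 0.024 for Irs1 and 0.015 for Akt2. Akt2 was 0.00032 with RLE size factors, 0.00033 in DESeq2 and 0.00068 with body weight alone, and Slc2a4 was 0.0011 with RLE size factors and in DESeq2. Leaving out single mice, the slope ranged from -0.044 to 0.036 for Irs1, -0.11 to 0.021 for Pik3r1, -0.022 to 0.014 for Akt2 and -0.012 to 0.021 for Slc2a4. All the other 6 slopes stayed negative when single mice were left out, Irs2 from -0.22 to -0.11. The range was -0.13 to -0.017 for Insr, -0.11 to -0.039 for Tbc1d1, -0.14 to -0.0030 for Tbc1d4, -0.18 to -0.053 for Gsk3b and -0.19 to -0.055 for Foxo1. Irs2 and Foxo1 kept their sign but lost their unadjusted p under 0.05 with other covariates, at -0.012 and -0.00012 with the replicate block (p = 0.819 and 0.998, edgeR) and at -0.095 and -0.037 with body weight alone. The slopes of the block rest on mice numbered 1 to 6, without the lightest mouse. With body weight alone Insr, Gsk3b and Tbc1d1 kept an unadjusted p under 0.05 and Pik3r1 gained it. With the block, Insr and Tbc1d1 lost it too (p = 0.371 and 0.594, edgeR), and in limma-voom Insr and Foxo1 did (p = 0.0718 and 0.0508). Insr lost it as well with RLE size factors (p = 0.0604), no filter (0.0682), at least 10 counts in every mouse (0.0513) and thinning (0.0577, edgeR), so that 4 of the 5 kept it in these fits.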
